A study of Mus musculus with 6 samples.

Results

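Fibroblast growth factor (FGF) ligands, FGF binding proteins, FGF receptors and the receptor adaptor FRS2 were read in mouse liver libraries labelled as liver sinusoidal endothelial cells (LSECs), which form the walls of the hepatic sinusoids. The 10 genes were Fgf1, Fgf2, Fgfbp1, Fgfbp3, Fgfr1, Fgfr2, Fgfr3, Fgfr4, Fgfrl1 and Frs2, taken by symbol from a table of 60832 genes. Mice carried colorectal cancer liver metastasis (CRCLM) xenografts of the human colorectal cancer line HCT116. LSECs were pulled out of the digested liver metastasis tissue with beads against CD146. RNA-seq was performed on 3 LSEC libraries of the sensitive group, from xenografts that respond to bevacizumab, and 3 of the resistant group, from xenografts with acquired resistance to it. Bevacizumab is an antibody against the angiogenic factor VEGF. The comparison addresses whether FGF genes differ between LSECs of the groups, since the study places an FGFBP1, FGF2 and FGFR1 axis in hepatic stellate cells (HSCs) and tumor cells of this model.

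By the study's methods the hosts were male BALB/c nude mice, which lack a thymus and mature T cells, and the HCT116 cells were injected into the liver. The resistant group derives from HCT116 xenografts given repeated intraperitoneal bevacizumab for weeks, and vehicle mice received IgG. Whether the sensitive LSECs came from these vehicle mice is not stated in the sources used here. The labels give primary LSECs cultured for 24 h for all 6 libraries. They do not say that the libraries of a group came from separate mice, so the p-values measure the spread between these libraries, which may be technical. All the xenografts come from a single tumor cell line.

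FGF signaling starts when an FGF ligand, a secreted protein held in the extracellular matrix by heparan sulfate, binds a receptor tyrosine kinase of the FGFR family together with heparan sulfate. FGF binding proteins release ligand from the matrix, and the activated receptor phosphorylates FRS2, which recruits GRB2 and turns on the RAS and ERK cascade. ERK in turn raises transcription factors such as EGR1 and feedback inhibitors of the Sprouty, SPRED and DUSP families. In the liver, FGF2 and FGFR1 are known for their roles in endothelial cells and in the activation of stellate cells.

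Total counts on genes were between 17599326 and 20726684 per library, so that 3 counts, the floor used here, corresponded to between 0.136 and 0.193 CPM, the unit in which counts are divided by the TMM-scaled size of the library. The floor and the counting intervals below cover counting error only, since reads were counted without molecular identifiers. Sensitive replicate 2 stood apart. Its correlation with the other libraries (Pearson's r over genes, a description since genes are not independent) ran from 0.864 to 0.905 in 5 pairs. The 10 pairs without it ran from 0.954 to 0.974. It had a count of at least 10 for 19288 genes against 15050 to 15767 in the other libraries. Any count was present for 21792 of its genes, the fewest, against 23275 to 25970 in the others. Few of its genes thus held low counts, and a count of 0 may not read in it as elsewhere. Results are therefore also given without this library. The tissue label was set against marker lists. The summed CPM of 18 macrophage and Kupffer cell genes was between 27286 and 46276 per library, that of 15 sinusoidal endothelial genes between 1400 and 2631, and that of 15 pan-endothelial genes between 88.2 and 552. Macrophage genes thus gave the larger sum in each library labelled as LSECs. Mrc1 made up 23.4 to 45.5% of the sinusoidal endothelial sum, and the other 14 genes summed to between 844 and 1434 CPM. Among these, Stab1 had 8143 to 15901 counts, whereas Clec4g had 16 to 118 and Gpr182 26 to 93. Marco made up 13.0 to 29.2% of the macrophage sum and Cdh5 14.2 to 51.3% of the pan-endothelial sum. Mcam, which encodes the CD146 of the isolation, had 6 to 79 counts. The study's methods also describe the isolated LSECs as CD146-positive at high purity by flow cytometry, which reads protein and not RNA. Which cell types the FGF reads came from was not tested, so the levels below are those of the libraries and not of LSECs alone. In bulk RNA, fewer cells of a type and less RNA per cell cannot be told apart.

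Sequence upstream of the gene start is shown for Fgfr3 and Fgfbp3, because these were the members whose TMM-scaled libraries did not overlap between the groups. The stretches were read from RefSeq promoter entries on GRCm38.p6 and end at the first base outside the gene as annotated in GENCODE M21. They are written 5′ to 3′ on the strand of the gene, Fgfr3 from chr5:33721474-33721673 on the + strand and Fgfbp3 from chr19:36919616-36919849 on the - strand. Capitals mark a GC box (GGGCGG or its reverse complement CCGCCC, a motif read by SP1 family factors) or a TATA box (TATAAA or its reverse complement TTTATA).
Fgfr3: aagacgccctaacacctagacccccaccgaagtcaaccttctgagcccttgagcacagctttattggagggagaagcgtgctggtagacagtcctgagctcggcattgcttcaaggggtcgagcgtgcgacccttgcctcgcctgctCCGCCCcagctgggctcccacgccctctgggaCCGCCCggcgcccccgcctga
Fgfbp3: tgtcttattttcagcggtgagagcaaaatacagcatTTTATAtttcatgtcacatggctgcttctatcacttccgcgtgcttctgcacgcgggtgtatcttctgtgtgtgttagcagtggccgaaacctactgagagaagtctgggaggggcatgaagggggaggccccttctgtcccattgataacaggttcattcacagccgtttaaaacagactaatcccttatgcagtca

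The Fgfr3 stretch of 200 bases was 65% G and C, with 2 GC boxes and no TATA box. The Fgfbp3 stretch of 234 bases was 47.4% G and C, with 1 TATA box and no GC box. The members shown thus shared neither motif. Over the 250 bases upstream of 32851 RefSeq promoters, 32.7% held a GC box and 12.4% a TATA box on either strand. The EGR1 site GCGTGGGCG or its reverse complement CGCCCACGC was held by 0.536% of these promoters and was not found in the upstream windows of the 8 members that were searched, which says only that these letters are not there. A match or its absence is a description of the sequence.

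Of the 10 members, 8 passed edgeR's filter on low counts and were tested in the quasi-likelihood test. None of the 8 passed an adjusted p of 0.05 (Benjamini-Hochberg), where 0% of all 15474 genes tested did, and 0.940 was the smallest adjusted value of any gene. Before adjustment the count of members below 0.05 was also 0, against 3.08% of all genes tested (0.536% higher and 2.54% lower in the resistant group), and with DESeq2's Wald test it was 0 against 4.73%. The log2 fold change of the resistant against the sensitive group was positive in 6 members and negative in 2, with a median of 0.42 beside 0.01 for all genes tested. The TMM-scaled CPM of the groups did not overlap in 2 members, Fgfbp3 and Fgfr3, both higher in the resistant group, against 9.02% of all genes tested in either direction, 4.69% in this direction and 4.33% in the other. Without sensitive replicate 2 there were again 2 such members, the same genes, against 19.4% of all genes tested, an alternative chosen after seeing the data. Fgfr3 was the member whose libraries did not overlap under TMM, under DESeq2 size factors and with library totals alone. It had passed the filter on low counts only through the resistant group. The deposited FPKM values of a gene order the libraries as library totals do, so they are no separate check. With library totals or FPKM, Frs2 took the place of Fgfbp3, against 8.39% of all genes tested in either direction.

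The levels of the members, compared per length in deposited FPKM (fragments scaled to gene length and to the mapped total of the library), fell into an upper and a lower part. Fgfr1 was the highest with a mean of 6.70 ± 2.52 FPKM (SD, n = 6 libraries) and Frs2 the second with 4.71 ± 1.32. Fgfr1 exceeded Frs2 in 5 of 6 libraries, all except sensitive replicate 3. Fgfbp3 followed with 1.59 ± 0.472, Fgfrl1 with 1.33 ± 0.429 and Fgf2 with 0.849 ± 0.516. Fgfbp3 exceeded Fgfrl1 in 4 of 6 libraries, so these neighbors differed by less than their spread, whereas Frs2 exceeded Fgfbp3, and Fgfrl1 exceeded Fgf2, in 6 of 6. The lower part held Fgf1 with 0.150 ± 0.0916 FPKM, Fgfbp1 with 0.132 ± 0.155, Fgfr2 with 0.0778 ± 0.0421, Fgfr3 with 0.0705 ± 0.0486 and Fgfr4 with 0.0640 ± 0.0650. Fgf2 exceeded Fgf1 in 6 of 6 libraries, and among the 5 genes of the lower part each gene exceeded the next in only 3 to 5 of 6 libraries. Their order is not resolved at this depth.

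**Figure D1:**
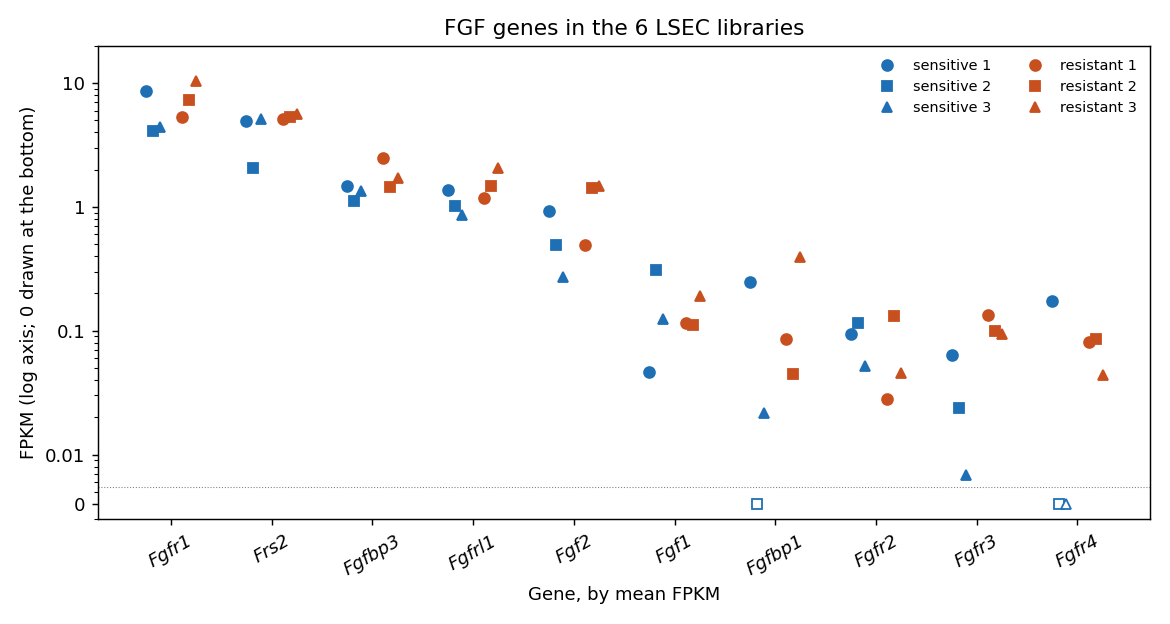
Deposited FPKM (log axis, values of 0 drawn as open symbols at the bottom) of the 10 FGF genes, ordered by their mean, with 1 symbol per library, blue for the sensitive and orange for the resistant group and the shape giving the replicate. Fgfr1 and Frs2 lie highest in each library, between 2.05 and 10.4 FPKM, and Fgfr4 lies lowest on average, with 2 libraries at 0.

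Among the ligands, Fgf2 was the one with more than 30 counts in each library. Fgf2 is a heparin-binding ligand that lacks a classical secretion signal and is stored in the matrix. Sensitive replicates 1, 2 and 3 had 5.87, 3.81 and 1.86 CPM, and resistant replicates 1, 2 and 3 had 3.12, 9.85 and 9.88 CPM. Replicates 2 and 3 of the resistant group were the highest, while replicate 1 lay within the range of the sensitive group, so the groups overlapped. The means were 3.85 ± 2.01 and 7.62 ± 3.89 CPM (SD, n = 3 libraries each), with a log2 fold change of 0.98 (standard error 0.593, 95% confidence interval -0.42 to 2.38, edgeR's quasi-likelihood test, adjusted p = 0.940). The interval included 0. The log2 fold change was 0.96 without sensitive replicate 2. Without resistant replicate 1, the library of that group within the sensitive range, it was 1.36 (edgeR's unadjusted p = 0.0429, adjusted p = 0.973). In that fit 628 of all genes tested fell below 0.05 before adjustment. The filter was run again for it, so the number of genes tested may differ and no share is given.

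Fgf2 lies on chromosome 3 of GRCm38 (37348346 to 37410108, + strand). Of its exon bases, 895 or 13.2% are shared with Nudt6, an antisense gene on the opposite strand with 9 to 44 counts per library, or with Gm43439 on the same strand, which had 0 counts in each library. Because the strand setting of the counting is not given in the sources used here, reads from Fgf2 and Nudt6 cannot be told apart over these bases.

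Fgf1, a ligand that can bind all the FGF receptors, had few reads. Sensitive replicates 1, 2 and 3 held 5, 30 and 14 counts, and the resistant ones 13, 12 and 20. Both the lowest and the highest library belonged to the sensitive group, and all 3 resistant libraries lay between them. The means were 0.953 ± 0.879 CPM in the sensitive and 0.742 ± 0.244 CPM in the resistant group (SD, n = 3 libraries each), with a log2 fold change of -0.35 (standard error 0.825, 95% confidence interval -2.29 to 1.60, edgeR's adjusted p = 0.949). The sign depended on sensitive replicate 2, the library that stood apart. Without it the log2 fold change was 0.67. The interval reaches more than a doubling in either direction, so a difference of that size was not detectable with these libraries. The 95% Poisson intervals of sensitive replicates 1 and 2, 1.62 to 11.7 and 20.2 to 42.8 counts, did not overlap. The spread between these libraries was thus larger than counting error. Fgf1 lies on chromosome 18 (38838673 to 38929472, - strand).

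The other FGF ligands were close to absent from the counts. Of 20 listed, 4 had 0 counts in all 6 libraries, 18 had no library above 10 counts, and 1, Fgf7, passed the filter. Fgf7, a mesenchymal ligand that acts on epithelial cells, had 49, 14 and 18 counts in the sensitive libraries and 67, 39 and 31 in the resistant ones, which overlapped. Its log2 fold change was 0.67 (standard error 0.580, edgeR's adjusted p = 0.940). Fgf11, which belongs to the intracellular FGF homologous factors and is not secreted, had 0 to 14 counts, and Fgf22 had 0 to 9.

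The binding proteins differed from each other in level. Fgfbp3, a secreted protein that binds FGF2, lies on chromosome 19 (36917550 to 36919615, - strand) downstream of the sequence printed above. It had 2.44, 2.26 and 2.39 CPM in the sensitive libraries and 4.11, 2.62 and 2.97 CPM in the resistant libraries, from 35 to 91 counts. The sensitive libraries were tightly grouped and all resistant libraries lay above them, replicate 1 most of all. The means were 2.36 ± 0.0934 and 3.23 ± 0.783 CPM (SD, n = 3 libraries each), and the exact two-sided permutation test gave p = 0.1, the smallest p-value that 3 libraries against 3 allow. Any gene whose groups do not overlap gives this value, so it adds nothing to the separation. The log2 fold change was 0.45 (standard error 0.386, 95% confidence interval -0.46 to 1.36, edgeR's adjusted p = 0.940), 0.41 without sensitive replicate 2 and 0.25 without resistant replicate 1. On the FPKM scale the separation was lost. Sensitive replicate 1 had 1.47 FPKM there and resistant replicate 2 1.46.

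Fgfbp1, the binding protein that the study follows in tumor cells, was at the limit of detection in these LSEC libraries and did not pass the filter. The counts were 11, 0 and 1 in the sensitive and 4, 2 and 17 in the resistant libraries. High and low libraries occurred in both groups. The count of 0 in sensitive replicate 2, the library with few low counts, is under the floor of 3 counts, which is 0.193 CPM there. The 17 counts of resistant replicate 3 have a 95% Poisson interval of 9.90 to 27.2. In the fit without a filter the log2 fold change was 0.98 with an adjusted p of 0.881 in edgeR's test, and the exact permutation test of the CPM values gave p = 0.5. Fgfbp1 lies on chromosome 5 (43978858 to 43981779, - strand).

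Among the receptor tyrosine kinases, Fgfr1 made up nearly all of the transcript signal. It had 80.3, 45.9 and 44.2 CPM in the sensitive and 49.1, 72.7 and 101.2 CPM in the resistant libraries, from 712 to 1978 counts. The lowest 2 libraries were sensitive and the highest resistant, but sensitive replicate 1 exceeded replicates 1 and 2 of the resistant group. The means were 56.8 ± 20.4 and 74.3 ± 26.1 CPM (SD, n = 3 libraries each), with a log2 fold change of 0.39 (standard error 0.351, 95% confidence interval -0.44 to 1.21, edgeR's adjusted p = 0.940). The difference was smaller than the spread between libraries, and it was 0.25 without sensitive replicate 2. In each library Fgfr1 exceeded Fgf2, by 5.07 to 16.4 times in FPKM. Fgfr1 lies on chromosome 8 (25513654 to 25575718, + strand), and 1.66% of its exon bases are shared with Gm16159 on the opposite strand, which had 0 to 6 counts.

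**Figure D2:**
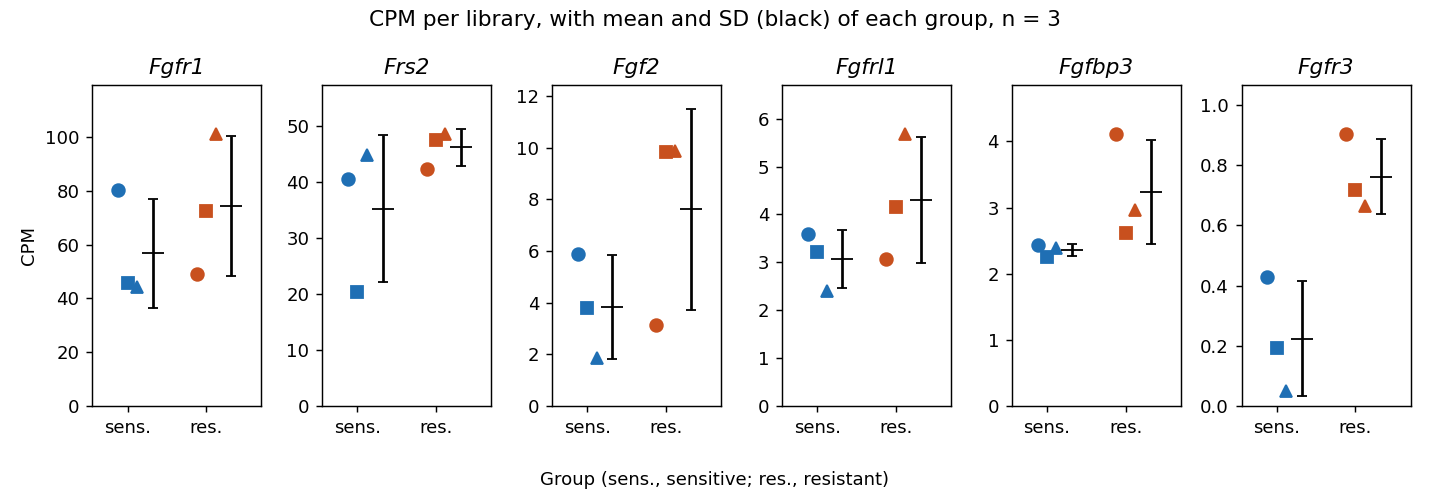
CPM per library (points, shapes as replicate) of 6 FGF genes in the sensitive (blue) and resistant (orange) groups, with the mean and SD of each group of 3 libraries in black and each axis starting at 0. The groups overlap for Fgfr1, Frs2, Fgf2 and Fgfrl1, while all 3 resistant libraries lie above the sensitive ones for Fgfbp3 and Fgfr3.

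Fgfr3 showed the largest log2 fold change of the members tested, from few reads. Sensitive replicates 1, 2 and 3 held 9, 3 and 1 counts and the resistant ones 20, 14 and 13, for sums of 13 and 47. All 3 resistant libraries lay above the sensitive ones, with 0.904, 0.718 and 0.665 CPM against 0.430, 0.193 and 0.0489. The filter on low counts asks for enough counts in as many libraries as a group holds. Fgfr3 met this only through the resistant libraries, so its separation and its fold change are not independent of the filter. The counting intervals of the nearest libraries overlapped, since the 9 counts of sensitive replicate 1 have a 95% Poisson interval of 4.12 to 17.1 and the 13 counts of resistant replicate 3 one of 6.92 to 22.2. The means were 0.224 ± 0.192 and 0.763 ± 0.126 CPM (SD, n = 3 libraries each), and the exact permutation test gave p = 0.1. This value follows from the lack of overlap and adds nothing to it. The log2 fold change was 1.73 (standard error 0.831, 95% confidence interval -0.22 to 3.68, edgeR's adjusted p = 0.940 and unadjusted p = 0.0749). It was 1.63 without sensitive replicate 2. Without replicate 1 of that group, its highest library, it was 2.64 (edgeR's unadjusted p = 0.0424, adjusted p = 0.849). In that fit 602 of all genes tested fell below 0.05 before adjustment, again a count without a share. Fgfr3 lies on chromosome 5 (33721674 to 33737068, + strand), just downstream of the printed stretch with its GC boxes, and 13.9% of its exon bases are shared with G630022F23Rik on the opposite strand, which had 0 or 1 count per library.

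Fgfr2, whose splice forms divide between epithelial and mesenchymal cells, had 19, 21 and 11 counts in the sensitive and 6, 27 and 9 counts in the resistant libraries. The resistant group held both the highest and the lowest library. The log2 fold change was -0.40 (standard error 0.782, 95% confidence interval -2.25 to 1.44, edgeR's adjusted p = 0.943), and without sensitive replicate 2 it was -0.05. In GENCODE M21 the gene spans 130162451 to 133123350 of chromosome 7 on the - strand, and 3.04% of its exon bases are shared with Ctbp2 on the same strand, which had 603 to 910 counts, and reads over these bases cannot be told apart.

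Fgfr4, the receptor that responds to FGF15 in hepatocytes, had 12, 0 and 0 counts in the sensitive and 6, 6 and 3 counts in the resistant libraries and did not pass the filter. The highest library and both libraries at 0 belonged to the sensitive group. The floor of 3 counts is 0.193 CPM in replicate 2, the library with few low counts, and 0.147 CPM in replicate 3 of that group. In the fit without a filter the log2 fold change was 0.35 (edgeR's adjusted p = 0.978). Fgfr4 lies on chromosome 13 (55152640 to 55168759, + strand). Klb, the co-receptor through which FGF15 and FGF21 act, had 0 to 7 counts, and Kl, that for FGF23, had 0 in each library.

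**Figure D3:**
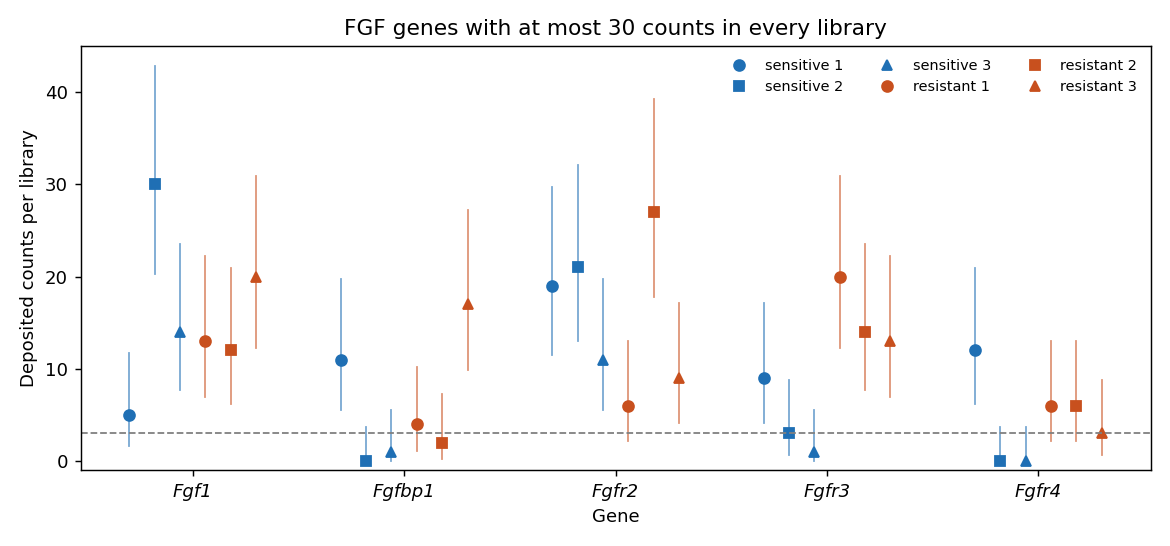
Deposited counts per library of the 5 FGF genes with at most 30 counts in each library, with 95% Poisson intervals as bars (reaching 3.69 for a count of 0) and the floor of 3 counts as a dashed line. Fgfr3 is the gene in which the 3 resistant points, at 13 to 20 counts, lie above the 3 sensitive points, at 1 to 9 counts, and the intervals of neighboring points overlap.

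The composition of the receptor signal was compared as the share of each kinase in the summed FPKM of Fgfr1, Fgfr2, Fgfr3 and Fgfr4. Fgfr1 took 96.3, 96.7 and 98.7% in the sensitive and 95.6, 95.8 and 98.3% in the resistant libraries, with overlapping groups (97.2 ± 1.27% and 96.6 ± 1.48%, SD, n = 3, exact permutation p = 0.5, adjusted over the 4 receptors 0.667). Fgfr3 took 0.711, 0.562 and 0.150% in the sensitive and 2.43, 1.31 and 0.891% in the resistant libraries. The resistant libraries were all higher here, by 1.07 percentage points on average, with an exact permutation p = 0.1 that was 0.4 after adjustment. The unadjusted value again follows from the lack of overlap. Fgfr2 had 1.64 ± 0.945% and 0.893 ± 0.740% (exact permutation p = 0.4, adjusted 0.667), and Fgfr4 0.639 ± 1.11% and 1.01 ± 0.539% (exact permutation p = 0.8, adjusted 0.8). The smallest adjusted value this design allows for the 4 shares is 0.1, and none of the differences passed a threshold of 0.05, which it cannot reach.

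Fgfrl1 encodes an FGF receptor without an intracellular kinase domain, which binds FGF ligands. It had 3.58, 3.22 and 2.39 CPM in the sensitive and 3.07, 4.16 and 5.68 CPM in the resistant libraries. Its libraries fell in the same order as those of Fgf2, with replicates 3 and 2 of the resistant group highest and sensitive replicate 3 lowest. The means were 3.07 ± 0.609 and 4.30 ± 1.31 CPM (SD, n = 3 libraries each), with a log2 fold change of 0.49 (standard error 0.398, 95% confidence interval -0.45 to 1.42, edgeR's adjusted p = 0.940) and 0.52 without sensitive replicate 2. The groups overlapped. Fgfrl1 lies on chromosome 5 (108692382 to 108706924, + strand).

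Frs2, the adaptor that links the receptors to GRB2, was even across the libraries except in the library that stood apart. It had 40.5, 20.4 and 44.8 CPM in the sensitive and 42.4, 47.6 and 48.6 CPM in the resistant libraries, from 316 to 949 counts. Sensitive replicate 2 was the low library, and the other 5 lay close together. The means were 35.2 ± 13.0 and 46.2 ± 3.33 CPM (SD, n = 3 libraries each), with a log2 fold change of 0.39 (standard error 0.309, 95% confidence interval -0.34 to 1.12, edgeR's adjusted p = 0.940). Without sensitive replicate 2 it was 0.10. In FPKM all resistant libraries, at 5.17 to 5.64, lay above the sensitive ones, at 2.05 to 5.10. On this scale the groups did not overlap, in either direction, for 8.39% of all genes tested. Frs2 lies on chromosome 10 (117069427 to 117148534, - strand).

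**Figure D4:**
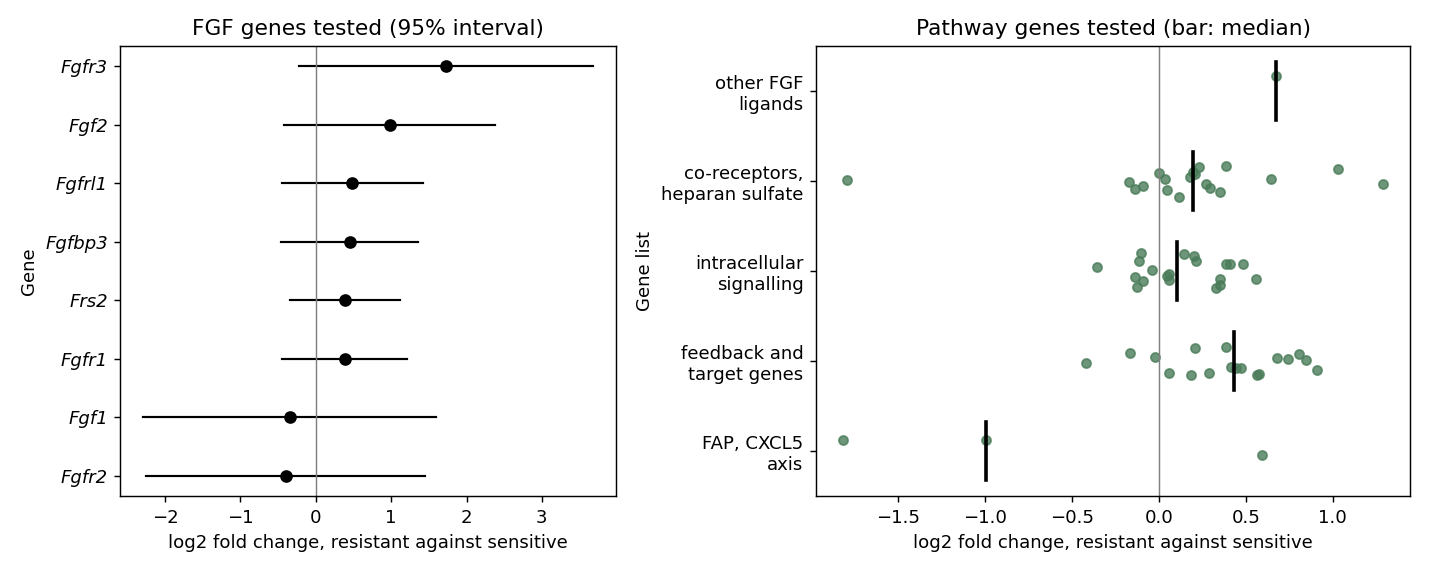
Left, log2 fold change of the resistant against the sensitive group with its 95% confidence interval (bars) for the 8 FGF genes tested, each interval crossing 0. Right, log2 fold change of each tested gene (points) in 5 lists of other FGF pathway genes, with the median of each list as a black bar, from -0.998 for the FAP and CXCL5 genes to 0.67 for the single other ligand, Fgf7.

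Genes whose levels followed the leading members closely over the 6 libraries were read by the root mean square difference of mean-centered log2 CPM among 9450 genes. For Fgfr1, whose log2 CPM spanned 1.19, Gm29216 (difference 0.158) and Tubb6 (0.174) were among the nearest. For Frs2, which spanned 1.25, the nearest were Slx4ip (0.0122), Dcaf7 (0.0309) and Slc30a6 (0.0326), each also lowest in sensitive replicate 2. Tubb6 encodes a beta tubulin.

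The wider pathway was read from lists of other FGF genes. In edgeR's test 0 genes of these lists fell below 0.05 before adjustment, against 3.08% of all genes tested. The co-receptor and heparan sulfate list had 19 of 25 genes tested, 14 with a positive and 5 with a negative log2 fold change and a median of 0.19. Named here by mean CPM, which is not per length, was Sdc3, a heparan sulfate proteoglycan of the cell surface, with 1318 ± 329 CPM in the sensitive and 1320 ± 463 CPM in the resistant group. Ndst1, an enzyme that sulfates heparan sulfate, had 202 ± 78.2 and 207 ± 21.0 CPM, and Sdc4, another surface proteoglycan, 140 ± 65.7 and 132 ± 46.3 CPM. The levels of these 3 genes were thus close between the groups relative to the spread of the libraries. Ext2, a subunit of the polymerase that builds heparan sulfate, had 64.0 ± 10.3 and 81.7 ± 2.12 CPM, and it was the 1 tested gene of 19 whose libraries did not overlap, against 9.02% of all genes tested, so the list held no more such genes than the background. The lowest p of the list belonged to Flrt2, a membrane protein of a family that binds FGF receptors, with 14.1, 6.32 and 9.67 CPM in the sensitive and 6.83, 35.0 and 32.3 CPM in the resistant libraries and a log2 fold change of 1.29 (standard error 0.612, edgeR's adjusted p = 0.940). As for Fgf2, replicates 2 and 3 of the resistant group were high and replicate 1 was not. Ext2 and Flrt2 were chosen after their values were seen.

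All 20 listed genes of the intracellular cascade were tested, 13 positive and 7 negative, with a median log2 fold change of 0.10. Grb2, the adaptor bound by FRS2, had 298 ± 51.7 and 290 ± 10.4 CPM, and Cbl, a ubiquitin ligase that turns over receptors, 190 ± 113 and 239 ± 37.4 CPM. The libraries of the groups overlapped for both genes. Sos1, the exchange factor that activates RAS, was the 1 gene of 20 whose libraries did not overlap, again against 9.02% of all genes tested, with 25.0 ± 9.93 and 37.0 ± 4.85 CPM and a log2 fold change of 0.56 (standard error 0.339, edgeR's adjusted p = 0.940), and it was chosen after its values were seen.

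Of 19 listed feedback and target genes, 18 were in the table and tested, 15 positive and 3 negative, with a median log2 fold change of 0.43 and a range from -0.42 to 0.91. Named by mean CPM were Spred1, an inhibitor of the RAS and ERK cascade, with 76.8 ± 32.9 and 104.8 ± 10.9 CPM, Ier3 with 67.0 ± 12.3 and 66.1 ± 18.4 CPM, and Dusp6, the phosphatase of ERK, with 61.1 ± 13.5 and 63.7 ± 12.1 CPM. None of the 18 had libraries that did not overlap. Egr1, the transcription factor that the study places downstream of FGFR1 in HSCs, had 19.6, 8.45 and 7.77 CPM in the sensitive and 22.8, 19.6 and 17.7 CPM in the resistant libraries. Sensitive replicate 1 fell within the resistant range, and the other 2 sensitive libraries were lower. Its log2 fold change was 0.74 (standard error 0.398, edgeR's adjusted p = 0.940).

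The genes at the end of the axis had no common direction. Fap, a surface protease of activated stromal cells, had 6 to 46 counts per library and a log2 fold change of -0.998 (standard error 0.843). Cxcl5, a neutrophil-attracting chemokine, had 8.57 ± 3.96 and 13.0 ± 7.83 CPM. Cxcr2, its receptor and a neutrophil marker, had 64.6 ± 47.5 and 18.3 ± 8.93 CPM, with a log2 fold change of -1.82 (standard error 0.805, edgeR's adjusted p = 0.940). The summed CPM of 9 neutrophil genes, Cxcr2 among them, was between 258 and 6388 in the sensitive and between 207 and 1148 in the resistant libraries. It was lowest in replicate 3 of both groups, as was Cxcr2. The part of these cells in the Cxcr2 values was not tested.

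**Figure D5:**
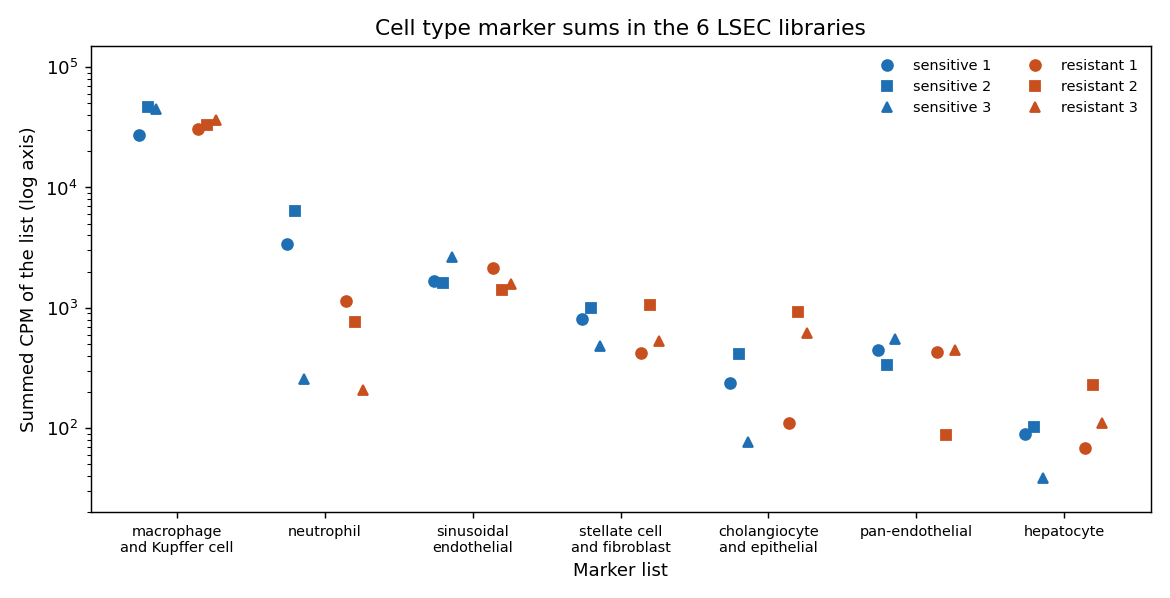
Summed CPM (log axis) of 7 cell type marker lists in each of the 6 libraries labelled as LSECs, blue for the sensitive and orange for the resistant group with the shape giving the replicate. Macrophage and Kupffer cell markers are the highest sum in each library, at 27286 to 46276 CPM, and the groups overlap in each list.

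Markers of other cell types also varied between the libraries. The stellate cell and fibroblast list, of which 14 of 18 genes were tested, summed to between 483 and 993 CPM in the sensitive and between 421 and 1047 CPM in the resistant libraries. Ecm1 made up 56.2 to 78.3% of this sum, and the other 17 genes summed to between 118 and 459 CPM. Among them Lrat and Ngfr had 0 to 4 and 0 to 1 counts, and Pdgfra and Col1a1 had 159 to 538 and 505 to 2629. Des had 34 to 127 counts, Hand2 8 to 51, Reln 0 to 26, Lum 0 to 15 and Tagln 0 to 31. The list thus does not separate stellate cells from fibroblasts. The sum of 9 cholangiocyte and epithelial genes was lowest in sensitive replicate 3, at 76.5 CPM, and resistant replicate 1, at 110.4 CPM, the libraries in which Fgf2 and Fgfrl1 were also lowest. In the other 4 libraries it was between 240 and 931 CPM. Spp1 made up 19.1 to 87.6% of this sum, with 815 CPM in resistant replicate 2. Without Spp1 the same 2 libraries were lowest, at 12.4 and 89.3 CPM, but resistant replicate 2 followed closely at 115.5 CPM and the others were between 158 and 332 CPM. The hepatocyte list summed to between 38.8 and 102.5 CPM in the sensitive and between 68.2 and 228.9 CPM in the resistant libraries, and the 9 of its 12 genes that were tested all had a positive log2 fold change, of which 3 fell below 0.05 before adjustment, where 0.536% of all genes tested did so in this direction. Of the 15 pan-endothelial genes, 14 had a negative log2 fold change, 6 of them below 0.05 before adjustment, where 2.54% of all genes tested did so in this direction. The part of these cell types in the FGF values was not tested. Whether reads of the human tumor cells entered the mouse counts, those of the epithelial genes and Fgfbp1 included, was not tested either.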

How the data were processed

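RNA-seq was performed on 6 LSEC libraries. Per the labels, libraries were made from ribosomal RNA-depleted RNA, and the study's Methods also name poly(A) selection. The authors aligned the reads with HISAT2 2.0.5 and counted them per gene with featureCounts 1.5.0-p3, and the deposited counts are not normalized. The deposited FPKM values are counts per library total and per gene length. The submitters' processing notes name the build mm9, whereas the lengths implied by the FPKM of all 10 members equal the exon lengths of GENCODE M21 (GRCm38), which was used for positions. The authors' own fold changes and p-values were not used. Groups were taken from sample titles. In R 4.3.3, genes were kept with filterByExpr, normalized by TMM and compared with the quasi-likelihood test of edgeR 4.0.16 (robust, two-sided, Benjamini-Hochberg over 15474 genes), with standard errors implied by the F statistic. The test was checked on simulated counts. Alternatives used DESeq2 1.42.0 and limma 3.58.1. Named genes were all members, the 3 genes of each list with the highest mean CPM, Egr1, Fap, Cxcl5 and Cxcr2, and the 3 genes nearest to each of the 2 members with the highest CPM (mean log2 CPM of at least 3, prior count 2), except that some genes chosen by this rule are not reported here. Members and lists were chosen with earlier results of these data known. Figures were drawn with matplotlib 3.10.9.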

Additional observations from a re-analysis of the deposited data

How the results depend on the processing

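The 8 members tested were refitted under 16 alternatives, 6 of which left out a library. Of 125 log2 fold changes, 121 kept their direction and their side of the threshold, and the 4 that reversed were all of Fgf1, at 0.15 with limma-voom, 1.19 with limma-voom and sample weights, 0.048 with the replicate block and 0.67 without replicate 2 of the sensitive group. With a library left out in turn Fgf1 was between -0.80 and 0.67. Fgfr3 was between 1.26 and 2.64, 0.69 on log2(FPKM + 0.1) and 0.11 on log2(FPKM + 1), Fgf2 between 0.66 and 1.43, Fgfr1 between 0.11 and 0.72 and Frs2 between 0.10 and 0.60. The difference in the Fgfr1 share of receptor FPKM was between -1.54 and 0.0376 percentage points, positive without replicate 3 of the sensitive group. Members with an unadjusted p under 0.05 numbered 0 to 1, and none had an adjusted p under 0.05 in these fits. The 1 was Fgf2 without replicate 1 of the resistant group, where 628 of all genes tested fell below 0.05 before adjustment. It was Fgfr3 without replicate 1 of the sensitive group, where 602 of all genes tested did. The filter was run again in each fit with a library left out, so these counts are not shares of the same number tested.

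The pathway lists held 1, 19, 20, 18 and 3 genes tested in the edgeR fit. With DESeq2, 2 pathway genes (Flrt2 and Cxcr2) had an unadjusted p under 0.05, where 4.73% of all genes tested did. The number was 1 with no filter and 4 with limma-voom and sample weights. It was 2 with the replicate block and 0 to 2 with a library left out. Over all genes, those with an adjusted p under 0.05 were 2 with no filter, 24 with DESeq2 and 1 with sample weights, against 0 in the edgeR fit, and those with an unadjusted p under 0.05 were 2036, 732 and 1484, against 476, and 167 with replicate 3 of the resistant group left out to 1056 with replicate 3 of the sensitive group left out. The cause of these shifts was not tested, except that the fit without a filter includes more genes. The deviations of libraries with the same replicate number correlated at -0.00, 0.03 and 0.19, so the numbers were not taken as pairs. The replicate block gave 467 genes with an unadjusted p under 0.05 and no member. A minimum of 10 counts in every library left Fgf1, Fgfr2 and Fgfr3 untested. Depth limits Fgf1, Fgfbp1, Fgfr2, Fgfr3 and Fgfr4, with at most 30 counts in a library.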
